A study of Mus musculus with 121 samples.

Results

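Collagen chain genes code for the chains that wind around each other in sets of 3 to form collagens, the main protein of the matrix that fibroblasts lay down. The genes described here were the protein-coding genes whose mouse symbol is Col, a number, a and a number, and that had at least 1 count in at least 3 libraries. Of the 31053 gene identifiers counted, 44 carried such a symbol and 40 met the rule. Col6a6 and Col9a1 had counts in 2 libraries each, and Col6a4 and Col6a5 had none. The rule itself uses neither treatment nor time, but it was set with earlier results of these data known.

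The RNA came from mouse ear fibroblasts, 1 immortalized line in which luciferase is fused to the clock protein PER2 (Per2::Luc), grown in microfluidic chips. In HL, cells received medium rich in glucose and insulin for 12 h and then medium low in glucose for 12 h, in LH they received both in the opposite order, and in HH the rich medium was renewed at each of these changes. All 3 groups went through 3 such days and then 12 h without a change of medium before RNA was collected 6 times, 4 h apart. Times are given as hours after the first collection, so that collections 1 to 6 stand at 0, 4, 8, 12, 16 and 20 h. The sample titles also carry clock hours, which were not used, since they do not follow that order. They are 20 and 12 for collections 1 and 2, then 4, 8, 12 and 16 for HL and HH and 16, 20, 12 and 16 for LH. Every time of peak and every rhythm P below rests on the order of collections and the 4 h interval. By the titles of the deposited samples HL had 21 libraries, LH 22 and HH 19, made by 3′DGE, which reads only the 3′ end of each transcript. Levels are counts scaled to a total of 1000000 per library (CPM), which with 3′ reads do not grow with the length of a gene and are given here without a correction for length. The labels do not say whether libraries of a group came from separate cultures, while the study describes its replicates in general as biological. The p-values measure the spread between these libraries.

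A library held between 3391603 and 9785826 counts for HL, between 104912 and 8154566 for LH and between 3687321 and 11619095 for HH, and only LH collection 2 replicate 2 had under 1000000. The service's read summary gives another name to the library numbers of 35 libraries and does not list 5 more, all of HL and LH, while each HH library has the same name both ways. Results for HL and LH are therefore given by titles and again by library numbers, which leave 57 libraries, 19 of each treatment, with 1 LH library at 16 h. The 5 unlisted libraries are HL collection 2 replicates 1 to 3 and LH collection 2 replicates 2 and 4. HH collection 6 replicate 3 stood apart from the other HH libraries in its collagen share and is named wherever a result rests on it. Of 12 fibroblast markers 10 reached a mean of 1 CPM, and their summed level spanned 8699 to 11312 CPM over the HL libraries, 8387 to 12400 over LH and 8121 to 10966 over HH. Of 5 keratinocyte markers 1 reached that mean, with Krt5 and Krt1 at 0. Of 7 chondrocyte markers Sox9 alone did, at 520 CPM with Matn1 at 0, and of 5 endothelial markers Kdr alone did, at 172 CPM with Cdh5 at 0.0672. Each of 5 melanocyte markers had a mean below 1 CPM, 1 of 4 Schwann cell markers and 2 of 5 immune markers were above it, and Acta2, Tagln and Cnn1, which contractile fibroblasts share with smooth muscle, had 345, 125 and 42.3 CPM beside 0.223 CPM of the smooth muscle myosin Myh11.

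The chains fall into classes by the shape they build. Fibrillar chains (types I, II, III, V, XI, XXIV and XXVII) assemble into banded fibrils, and type I, made of chains from Col1a1 and Col1a2, is the bulk of skin and tendon. Type IV chains form the meshwork of basement membranes, type VI chains form beaded filaments close to the cell surface, types VIII and X form short-chain networks, and fibril-associated collagens such as types XII and XVI sit on the surface of fibrils. Transmembrane collagens are anchored in the cell membrane, and the multiplexins XV and XVIII are basement membrane collagens that carry sugar chains. Procollagen is hydroxylated and folded in the endoplasmic reticulum, trimmed outside the cell and cross-linked by lysyl oxidase, and circadian clocks are known to influence collagen secretion in tendon fibroblasts.

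The genes of the type IV chains lie in head-to-head pairs, which is why the promoters of Col4a1 and Col4a2 are shown, and that of Col6a2 is shown because it had the smallest P for a daily rhythm among collagen genes in HH. The sequences run from 250 bases before to 50 bases after the annotated start (RefSeq, GRCm38.p6). Those of Col4a1 (chr8:11312777-11313076, minus strand) and Col4a2 (chr8:11312555-11312854, plus strand) share 78 bases, chr8:11312777-11312854, which are in capitals. The annotated genes themselves overlap by 22 bases there. Col6a2 has 2 windows, of which the one with the most GC boxes is printed (chr10:76623355-76623654, minus strand, 3 GC boxes), and the other (chr10:76623581-76623880, minus strand) has 1. Its capitals mark the GC box GGGCGG or its complement.
Col4a1: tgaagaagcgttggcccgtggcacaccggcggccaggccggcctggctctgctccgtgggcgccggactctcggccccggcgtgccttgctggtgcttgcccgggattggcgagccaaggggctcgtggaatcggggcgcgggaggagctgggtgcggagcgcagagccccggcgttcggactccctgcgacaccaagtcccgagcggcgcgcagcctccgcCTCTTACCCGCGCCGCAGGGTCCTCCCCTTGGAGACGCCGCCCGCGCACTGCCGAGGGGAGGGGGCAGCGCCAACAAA
Col4a2: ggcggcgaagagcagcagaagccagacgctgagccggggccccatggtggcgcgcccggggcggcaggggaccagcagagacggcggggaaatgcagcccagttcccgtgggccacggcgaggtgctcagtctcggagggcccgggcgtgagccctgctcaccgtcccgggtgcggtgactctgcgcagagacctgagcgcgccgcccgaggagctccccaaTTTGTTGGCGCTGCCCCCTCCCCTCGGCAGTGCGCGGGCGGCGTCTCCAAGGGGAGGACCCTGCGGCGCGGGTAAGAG
Col6a2: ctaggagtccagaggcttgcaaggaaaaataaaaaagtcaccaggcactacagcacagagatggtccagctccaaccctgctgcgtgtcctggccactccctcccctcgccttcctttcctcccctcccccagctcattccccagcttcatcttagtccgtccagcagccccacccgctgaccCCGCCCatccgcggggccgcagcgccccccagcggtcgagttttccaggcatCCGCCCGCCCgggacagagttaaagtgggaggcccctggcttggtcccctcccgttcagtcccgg

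RefSeq promoters were found for 31 of the 40 genes, 33 windows in all, among them no window for Col1a1, Col5a2 or Col12a1. The canonical E-box CACGTG, the letters that CLOCK and BMAL1 are known to bind, was in 0 of these 33 windows, read on both strands. It was in 7.15% of all 32851 promoter windows and in 9.71% of the 13021 windows of tested genes. The GC box GGGCGG was in 20 of 33 windows (60.6%), beside 61.6% of those of tested genes, and CCAAT was in 11 (33.3%) beside 38.0%. The window of Col5a3 held 3 GC boxes and 1 CCAAT, and that of Col1a2 held 2 of each. TATAAA was in 5 windows (15.2%), those of Col3a1, Col10a1, Col11a2, Col13a1 and Col17a1, beside 7.46% of those of tested genes. These are counts of letters in 1 window and say nothing about binding.

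The fibroblasts were rich in collagen RNA. The 40 genes together took 2.73% ± 0.637 (SD, n = 62) of the counts of a library, and 79.6% of collagen counts were of Col1a1 and Col1a2. Col1a2, the type I α2 chain, had 14955 ± 3360 CPM over all libraries (5416 to 22020) and ranked 2 among all genes, and Col1a1, the α1 chain, had 6785 ± 2096 CPM (1753 to 10319) and ranked 7. Only Col3a1 (type III, 1311 ± 390 CPM) and Col6a1 (type VI, 1139 ± 215 CPM) also exceeded 1000 CPM. The 10 highest genes held 98.1% of collagen counts, so the rest of the family is a small share of this RNA.

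By class, fibrillar genes took 2.37% of all counts, type VI genes 0.234%, short-chain genes 0.0741%, basement membrane genes 0.0281% and fibril-associated genes 0.0265%, while multiplexins (0.00233%) and transmembrane collagens (0.00151%) were far below. Between 100 and 1000 CPM were Col6a2 (995 ± 213), Col8a1 (740 ± 200.7), Col5a2 (299.6 ± 76.3), Col12a1 (221 ± 57.3), Col6a3 (206 ± 45.1), Col11a1 (147 ± 48.0), Col4a1 (144 ± 54.4) and Col5a1 (130 ± 42.1). These are the other 2 chains of type VI, the short-chain collagen of vessel walls and the eye, the regulatory chains of fibril diameter (types V and XI), a stress-responsive fibril-associated chain and the commoner of the basement membrane chains. Between 10 and 100 CPM were Col4a2 (95.6 ± 33.9), Col16a1 (43.7), Col4a5 (40.9), Col18a1 (22.4), the source of endostatin, Col5a3 (14.4), Col23a1 (13.9) and Col27a1 (12.7). The 3′ end of Col18a1 overlaps Slc19a1 (25.3 CPM), and since use of strand in the counting is not stated, reads of the 2 genes may not be separated.

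The other 21 genes were barely present. Col11a2 had a mean of 1.54 CPM, and 20 genes had a mean below 1 CPM. Of these, Col15a1 (0.929 CPM), Col17a1 (0.865), Col7a1 (0.446), Col10a1 (0.369), Col4a4 (0.339), Col8a2 (0.317), Col24a1 (0.259), Col20a1 (0.192) and Col25a1 (0.173) reached 1 CPM in at least 3 libraries and were tested. Col10a1, a cartilage growth plate collagen, lies within Nt5dc1 (5.47 CPM), so its counts are uncertain. Col13a1, Col9a3, Col14a1, Col28a1, Col22a1, Col2a1, Col19a1, Col4a3, Col26a1, Col9a2 and Col4a6 had means of 0.0282 to 0.164 CPM and together 0.00262% of collagen counts, and were not tested. The highest of these means, that of Col13a1, rests mostly on 1 count in the LH library of 104912 counts, where it stood at 9.53 CPM. Col10a1 had its highest value, also 9.53 CPM, in the same way. Col2a1, the cartilage fibril chain, had 23 counts in all 62 libraries. A count of 0 in a library allows a level of up to 3 counts, which was 0.258 to 1.40 CPM in libraries of at least 1000000 counts and 28.6 CPM in the smallest library. Thus 29 genes were tested, among 13292 genes that passed the same filter.

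**Figure D1:**
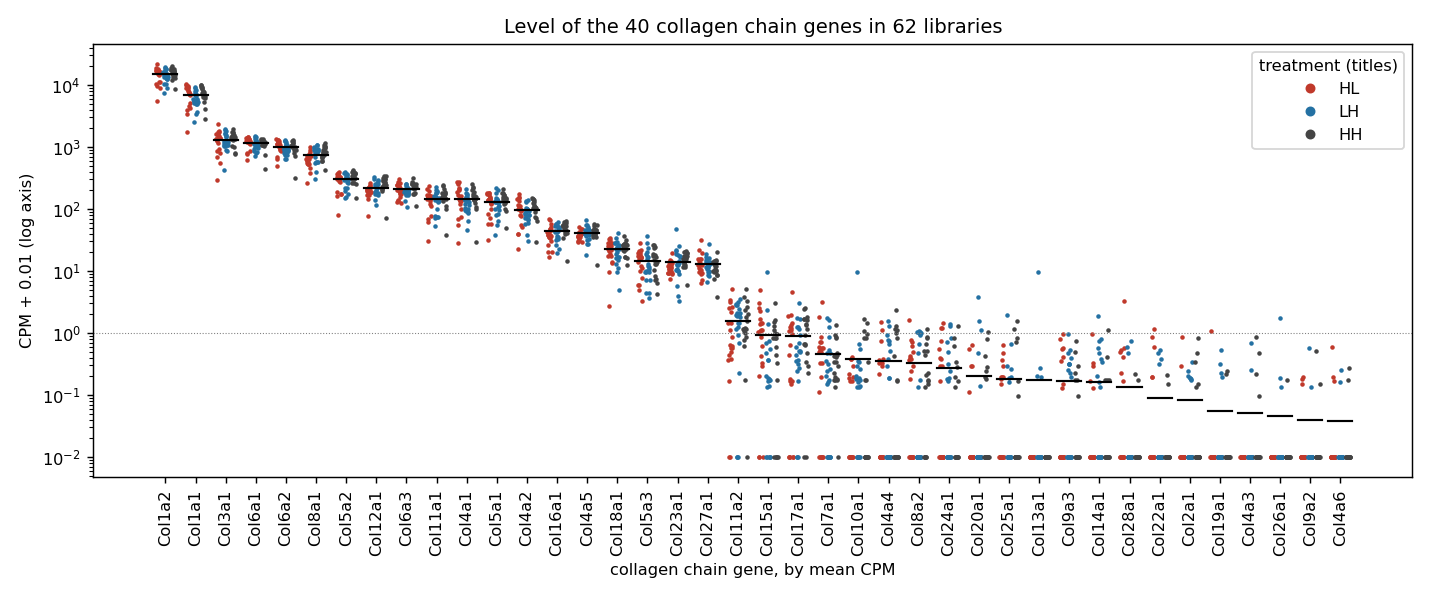
CPM (log axis, with 0.01 added so that a library at 0 stands at 0.01) of each of the 40 collagen chain genes in each library, in order of mean level, with 1 point per library coloured by treatment and a line at the mean. Levels ran over more than 5 powers of 10, from Col1a2 at 14955 CPM on average to genes with a count in few libraries.

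Collagen genes varied more between libraries than other genes of like level. Among genes of 100 to 1000 CPM, the SD of log2(CPM + 1) over libraries of at least 1000000 counts had a median of 0.451 for 8 collagen genes and 0.258 for all 1619 genes. Within 1 treatment and collection by titles it was 0.399 and 0.245. Among genes of at least 1000 CPM the medians were 0.457 for 4 collagen genes and 0.292 for 74 genes. This extra spread is a description and was not tested. The collagen share was lowest, 0.933%, in HL collection 2 replicate 3, and it was 1.67% in replicate 2 and 1.79% in replicate 1 of the same collection, all 3 unlisted by number. It was 1.34% in LH collection 2 replicate 1 and 1.39% in HH collection 6 replicate 3. The latter had 4679998 counts, 12494 genes with a count and a fibroblast marker sum of 9781 CPM, the median of the HH libraries. Which of these differences in the libraries bears on the low share was not tested.

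The first comparison asked whether the order of feeding changed the mean level of collagen genes. A gene was called where edgeR's quasi-likelihood p, without adjustment over genes, was below 0.01 over the 3 treatments and below 0.05 for the comparison. By titles, 2 of 29 collagen genes passed for LH against HL (background 1.16% of all genes tested), 2 for HH against HL (1.2%) and 0 for LH against HH (0.91%). None passed in any comparison by library numbers, where the background was 1.34%, 0.568% and 1.63%. After Benjamini-Hochberg adjustment over all genes no collagen gene passed either way.

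Col8a1, the short-chain collagen, was called in both comparisons. Its CPM had a lowest value, median and highest value of 264.3, 628 and 1004 in HL, while LH had 309, 832 and 1069 and HH had 430, 814 and 1135. The ranges overlapped widely, with HL lowest in the middle. By edgeR the log2 fold change was 0.25 (SE 0.099, p = 0.0155, adjusted p = 0.732) for LH against HL and 0.33 (SE 0.102, p = 0.00195, adjusted p = 0.413) for HH against HL. By library numbers LH had the lower mean, 684 ± 203 CPM beside 770 ± 180 in HL, and the log2 fold change was -0.12, so the direction of LH against HL turned with the naming.

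Col12a1, a fibril-associated chain found where tissue bears load, was higher in HH than in HL. Its lowest, median and highest CPM were 77.8, 194 and 257.1 in HL, 115, 216 and 326 in LH and 70.3, 257.7 and 345 in HH. The lowest HH value was that of collection 6 replicate 3. The log2 fold change of HH against HL was 0.36 (SE 0.109, p = 0.00182, adjusted p = 0.413 by edgeR) by titles and 0.28 (SE 0.0969, p = 0.00614, adjusted p = 0.999) by library numbers, where the test over treatments had p = 0.0163 and missed its threshold. The direction of HH against HL was thus the same under both sets of names.

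Col15a1, a multiplexin, was called lower in LH than in HL by titles at very low levels. HL had a median of 1.06 CPM (0 to 4.86), LH one of 0.173 (0 to 9.53) and HH one of 0.822 (0 to 3.02). The highest LH value is 1 count in the library of 104912 counts. The log2 fold change was -1.54 (SE 0.476, p = 0.00188, adjusted p = 0.472 by edgeR) by titles and 0.75 (SE 0.435, p = 0.0905) by library numbers. Its direction also turned with the naming.

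The abundant type I chains were not called. Col1a1 had by titles a mean of 7212 ± 2477 CPM in HL, while it was 5972 ± 1683 in LH and 7254 ± 1874 in HH. The log2 fold change of LH against HL was -0.32 (SE 0.111, p = 0.00589, adjusted p = 0.567 by edgeR), and the test over treatments had p = 0.0111. By library numbers the means were 6870 ± 2056, 6976 ± 2033 and 7254 ± 1874 CPM, nearer to each other than the SD within a treatment. Over the 29 genes the median log2 fold change was -0.11 for LH against HL (9 of 29 higher), 0.09 for HH against HL (20 higher) and -0.20 for LH against HH (5 higher) by titles, beside 0.00 for all genes in each. By library numbers it was 0.04 (18 higher), 0.09 (22 higher) and -0.04 (12 higher). All collagen genes together took 2.76% ± 0.752 of counts in HL (n = 21), 2.57% ± 0.587 in LH (n = 22) and 2.89% ± 0.532 in HH (n = 19).

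**Figure D2:**
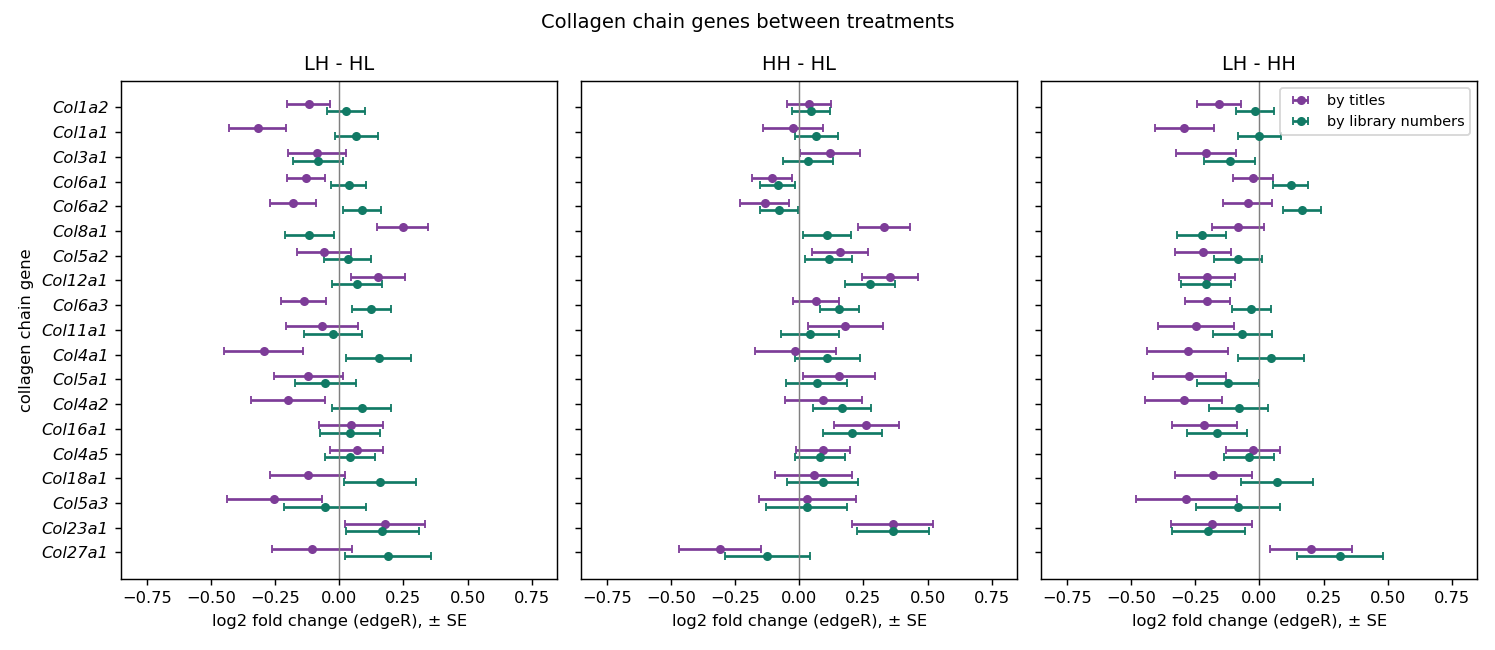
Log2 fold change with its SE (horizontal bar) from edgeR of each of the 19 collagen genes of at least 10 CPM for LH against HL, HH against HL and LH against HH, by titles (purple) and by library numbers (green). Col12a1 is to the right of 0 in HH against HL under both namings, and Col8a1 in LH against HL is at 0.25 by titles and at -0.12 by library numbers.

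The second comparison asked which collagen genes followed a 24 h rhythm. JTK_CYCLE, a rank test against cosine curves, was run in each treatment alone at P below 0.01 without adjustment over genes. HH is taken first, since its libraries have the same names both ways. There, 2 of 29 collagen genes passed, Col6a2 and Col4a2, with a background of 1.22% of genes. Both had their fitted peak at 4 h. The calls rest on few libraries, since 0 of 29 passed without the HH libraries of replicate 4.

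Col6a2, which codes for the α2 chain of type VI collagen, had 1027, 1093, 1089 and 995 CPM at 0 h in HH, 1236, 1228 and 1303 at 4 h and 1144, 1021 and 1159 at 8 h. It then had 810 and 961 CPM at 12 h, 958, 891 and 958 at 16 h and 991, 714, 314 and 878 at 20 h. The libraries at 4 h were above all others, and those from 12 h on were below all libraries of the first 2 collections. JTK_CYCLE gave P = 0.000418 (adjusted P = 0.343) with an amplitude of 148 CPM. The value of 314 CPM is that of collection 6 replicate 3, without which P was 0.000315.

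Col4a2, a chain of the basement membrane collagen, had 151, 143, 104 and 123 CPM at 0 h in HH, 144, 139 and 131 at 4 h and 116, 109 and 109 at 8 h. It had 105 and 74.9 CPM at 12 h, 104, 88.9 and 99.6 at 16 h and 103, 71.1, 29.7 and 65 at 20 h. Levels stepped down from the first to the last collections, with no return at 20 h. JTK_CYCLE gave P = 0.00478 (adjusted P = 0.661) and an amplitude of 25.1 CPM, and without collection 6 replicate 3 P was 0.00474.

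Col8a1 was the next in HH, with its peak at 14 h and not at 4 h. It had 713, 675, 588 and 603 CPM at 0 h and 1135, 949, 430 and 814 at 20 h, with its highest collection at 16 h (1086, 1006 and 1051). Apart from collection 6 replicate 3 at 430 CPM, the libraries of the last 2 collections had 814 CPM or more, beside a highest value of 822 CPM in the first 2. JTK_CYCLE gave P = 0.0198 and an amplitude of 236.98 CPM, and without that library P was 0.00567, which passes the threshold. Col8a1 was thus higher late, where most other collagen genes of HH were lower.

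The other abundant chains passed no test over time in HH. Means are given in the order 0, 4, 8, 12, 16 and 20 h (n = 4, 3, 3, 2, 3 and 4), where the mean at 20 h includes collection 6 replicate 3. Col1a2 had mean levels of 17286, 16656, 16215, 14464, 17207 and 12931 CPM, with SDs from 885 to 4333. Col3a1 had 1321, 1605, 1634, 1279, 1486 and 1071 CPM (SD 56.9 to 396), and Col6a1, the α1 chain of type VI, had 1237, 1167, 1282, 1097, 1156 and 879 CPM (SD 25.4 to 353). All 3 had their lowest mean at 20 h, and without that library the means there, 14377, 1166 and 1023 CPM, were still the lowest.

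Of the chains that regulate fibril diameter, Col5a2 had 323, 373, 345, 310.1, 353 and 276.6 CPM (SD 31.0 to 100.4), Col5a1 had 155, 186, 141, 125, 140.1 and 106 CPM (SD 12.0 to 43.8) and Col11a1 had 157, 213, 184, 156, 178 and 98.9 CPM (SD 7.62 to 44.6). Each had its highest mean at 4 h and its lowest at 20 h, but without collection 6 replicate 3 the 20 h mean of Col5a2 was 319 CPM, above that at 12 h. Col4a1 had 195, 196, 159, 129.8, 152 and 98.1 CPM (SD 10.4 to 52.6). Col6a3, the long chain of type VI, had 248.1, 253.2, 224.2, 197, 211 and 204 CPM (SD 13.2 to 73.9), and Col12a1 had 210.4, 276.9, 268.7, 288.2, 276.9 and 241.02 CPM (SD 13.7 to 121), with its lowest mean at 0 h. Without that library Col12a1 had 297.9 CPM at 20 h, its highest mean.

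In HL and LH the high and low collections of these chains depended on the naming. By titles the lowest mean was at 4 h for Col1a2 (11870 CPM in HL and 10351 in LH), Col5a2 (203 and 188) and Col11a1 (80.8 and 66.6). All unlisted libraries stand at 4 h, replicates 1 to 3 of HL and replicates 2 and 4 of LH. Replicate 2 of LH there is the library of 104912 counts. By number, collections with 1 library aside, Col1a2 was lowest at 16 h in HL (12604 CPM) and at 20 h in LH (13344), Col5a2 was lowest at the same times (236.7 and 281.4), and so was Col11a1 (113 and 131). Col6a3 by number was highest at 4 h in both (246.3 and 263.1 CPM), and Col12a1 by number was highest at 20 h in both (276.7 and 263.4 CPM).

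edgeR's test over the 6 collections asks for any change with time, also one that is no daily wave. In HH 0 of 29 collagen genes passed at an adjusted p below 0.05 (background 0.293%), and 5 had an unadjusted p below 0.05, beside 8.61% of all genes. With libraries named by number, which changes the model through the other treatments, it was again 0 of 29 (background 0.803%), with 8 below an unadjusted p of 0.05 beside 10.5% of all genes. By number some collagen genes passed in HH with DESeq2, beside 2.19% of all genes, as given in the closing section. The smallest value in HH was that of Col1a1, with an adjusted p of 0.313 by titles and 0.0829 by library numbers, followed by Col6a2 with 0.342 and 0.0993. Both tests saw the same libraries, so they are not independent.

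In HL and LH the rhythm of collagen genes depended on the naming. By titles, 0 of 29 passed JTK_CYCLE in HL (background 0.466%) and 0 in LH (background 0.933%), where Col5a3, the minor type V chain, came closest in LH with P = 0.0102. By library numbers 2 passed in HL (background 1.03%) and 7 in LH (background 1.31%). The 2 of HL were Col6a2 and Col5a3. The 7 of LH were Col6a2, Col5a1, Col5a3, Col6a1, Col15a1, Col4a1 and Col4a2. By number, 2 of the 3 type VI genes, 2 of the 3 type V genes and 2 of the 4 type IV genes tested thus passed in LH, with Col4a5 and Col4a4 both at P = 1. Without the LH libraries of replicate 1, 0 passed there. That also leaves out the single LH library at 16 h by number, so the whole collection is lost.

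The genes called by library numbers had fitted peaks at 4 h, except Col4a1 in LH at 2 h. Many other genes peaked then too, since 49 of 136 rhythmic genes of HL (36.0%) and 128 of 173 of LH (74.0%) had peaks from 2 to 6 h by number, beside 41 of 162 (25.3%) in HH by titles. By titles the share was smaller in both, with 14 of 62 (22.6%) in HL and 23 of 124 (18.5%) in LH. Col6a2 by number had 1344, 1119 and 1120 CPM at 0 h in HL, 1232, 1243 and 1283 at 4 h, 862, 840 and 745 at 16 h and 874, 896 and 940 at 20 h. All 6 early libraries were above all 6 late ones. JTK_CYCLE gave P = 0.000937 and an amplitude of 208 CPM, and in LH it gave P = 0.00121 and 175 CPM.

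By titles the same gene had a low collection in the middle of the high ones. Col6a2 in HL by titles had 1344, 1119 and 1120 CPM at 0 h and then 641, 699, 487 and 1252 at 4 h. The 3 low values are those of the unlisted libraries, and the library at 1252 is by number one of LH at 0 h. Without the 5 unlisted libraries 3 collagen genes passed in HL by titles, Col1a1 (P = 0.00384), Col4a1 and Col4a2, among 172 of 13198 genes, and Col5a3 alone passed in LH, among 162 of 13198 genes.

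Col5a3, whose chain joins type V trimers in a limited set of tissues, was low in level and varied several-fold between collections. By number it had 17.7, 19.3 and 14.0 CPM at 0 h in HL and 37.2, 28.4 and 20.4 at 4 h. It fell to 10.6, 9.70 and 3.68 CPM at 16 h and 4.38, 11.4 and 7.15 at 20 h. JTK_CYCLE gave P = 0.00362 in HL and P = 0.00171 in LH. In edgeR's test over collections Col5a3 was the 1 collagen gene that passed in LH by titles (adjusted p = 0.00607, background 2.93%) and the 1 that passed in HL by number (adjusted p = 0.0356, background 0.394%). In LH by titles no collagen gene passed without the LH libraries of replicate 1, and in HL by number none passed with either sequencing run alone or in 8 of 12 fits that left out a replicate. By titles its LH levels were highest at 8 h, with 37.2, 28.4, 20.4 and 17.7 CPM, and the first 3 of these are the libraries that are by number at 4 h in HL.

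Col3a1, the type III chain of extensible tissues, was the 1 collagen gene that passed the test over collections in LH by number (adjusted p = 0.0388, background 1.05%). No collagen gene passed there with the second sequencing run alone, nor in 8 of the 12 fits that each left out the libraries of 1 replicate number of 1 treatment. It had 1756, 2304 and 1556 CPM at 4 h there and 1135, 1034, 1061 and 428 at 20 h. In HL by titles no collagen gene passed (background 0.301%), 10 of 29 had an unadjusted p below 0.05 beside 8.98% of all genes, and Col3a1 was closest with an adjusted p of 0.0966. The single LH library at 16 h by number, at 556 CPM, leaves that collection without a spread of its own.

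**Figure D3:**
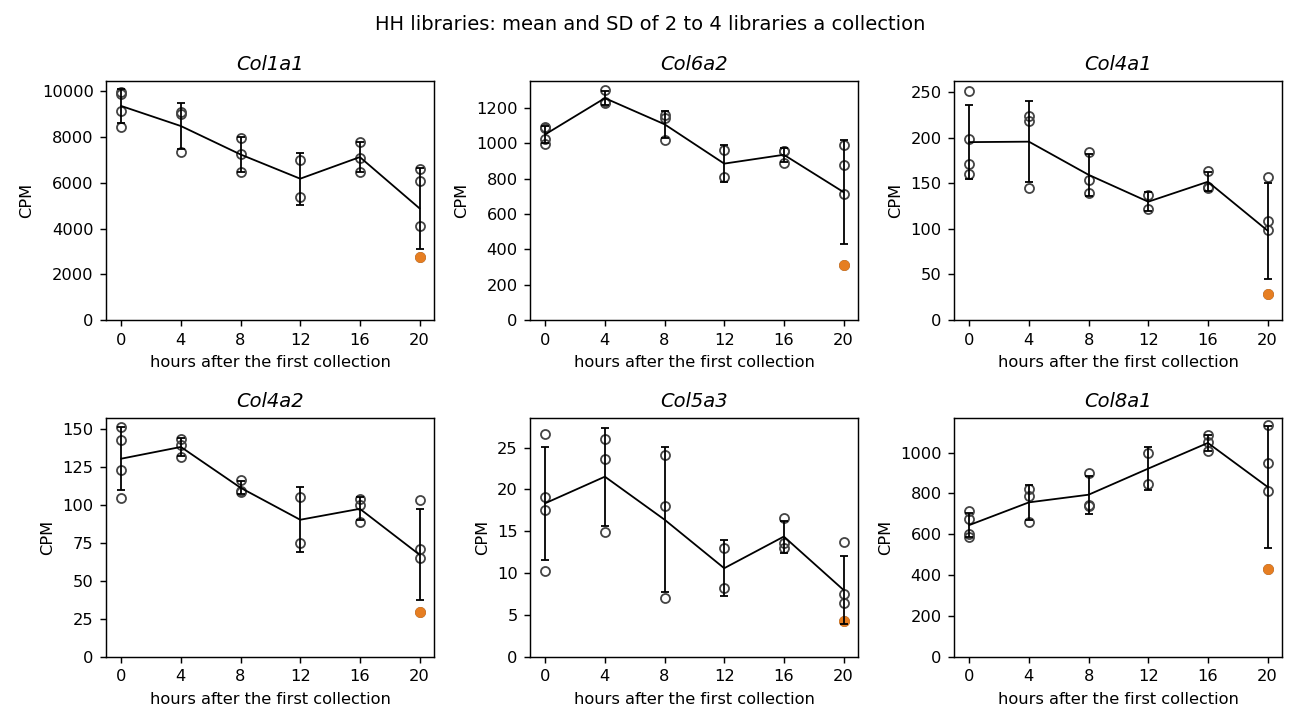
CPM of 6 collagen genes in HH against hours after the first collection, with 1 circle per library and a line through the means with their SD. The filled orange point is collection 6 replicate 3, Col6a2 is lower in each library from 12 h on than in the first 2 collections, and Col8a1 has its highest mean at 16 h.

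Since several genes stepped down without returning, the last 2 collections were set beside the first 2 as a description chosen after the values were seen, with no test. In HH 17 of the 19 collagen genes of at least 10 CPM were lower in the last 2 collections, beside 56.9% of all genes of that level, with a median log2 difference of -0.26 beside -0.03. Every late library was below every early one for 2 genes, Col6a2 and Col4a2 (background 0.256%). Without collection 6 replicate 3, 14 of 19 were lower, beside 51.2% of all genes, with a median of -0.14 beside -0.01.

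The size of the difference in HH differed between chains. Col4a2 had 134 ± 15.7 CPM in 7 early libraries and 80.1 ± 27.0 in 7 late ones, a ratio of 0.57, and Col4a1 had 195 ± 38.5 and 121 ± 47.3 CPM, a ratio of 0.56. Col1a1 had 8979 ± 901 and 5843 ± 1770 CPM, a ratio of 0.62, with an early minimum of 7331 beside a late maximum of 7788. Its partner Col1a2 had 17016 ± 2779 and 14764 ± 3263 CPM, a ratio of 0.86. Col8a1 was higher late, with 693 ± 87.4 and 924 ± 242 CPM, a ratio of 1.29, and Col12a1 had a ratio of 0.99. Without collection 6 replicate 3 the ratios were 0.66 for Col4a2, 0.70 for Col4a1, 0.70 for Col1a1, 0.93 for Col1a2 and 1.45 for Col8a1, and that of Col12a1 turned to 1.21. These ratios are means of logs, so they differ from the ratio of the means.

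By library numbers most collagen genes were lower late in HL and LH too, and by titles most were not. By number 15 of 19 genes were lower late in HL, beside 58.6% of all genes, with a median log2 difference of -0.50 beside -0.04. In LH it was 16 of 19 beside 68.7%, with -0.51 beside -0.14. By titles it was 1 of 19 beside 57.0% in HL (median 0.14 beside -0.03) and 6 of 19 beside 39.5% in LH (0.07 beside 0.06). By number, every late library was below every early one for 9 of the 29 tested genes in HL (background 1.04%) and for 10 in LH (background 2.39%). Col1a1, Col3a1, Col4a1, Col4a2, Col5a1, Col5a3, Col6a1 and Col6a2 were in both, Col1a2 in HL, and Col6a3 and Col15a1 in LH. By titles there was no such gene in HL (background 0.0527%) or LH (background 0.015%). No collagen gene had every late library above every early one in any treatment, where the background was 0.00752% in HL, 0.0527% in LH and 0.158% for HH by titles and 0.242%, 0.614% and 0.159% by number. Without the 5 unlisted libraries, 15 of 19 were lower late in HL (66.7% of all genes) and 8 of 19 in LH (38.4%) by titles.

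Col1a1 shows the contrast between the namings. By number it had 10319, 10123 and 8952 CPM at 0 h in HL and 4834, 5185 and 5329 at 20 h, and in LH 9512, 9701 and 8929 at 0 h and 5899, 5646, 5433 and 2529 at 20 h. Levels were thus higher at 0 h in every library, as in HH. By titles the HL libraries at 4 h had 3880, 3400, 1753 and 9512 CPM, and the last is the library that is LH at 0 h by number. JTK_CYCLE gave Col1a1 P = 0.0147 in LH by number, which misses the threshold.

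**Figure D4:**
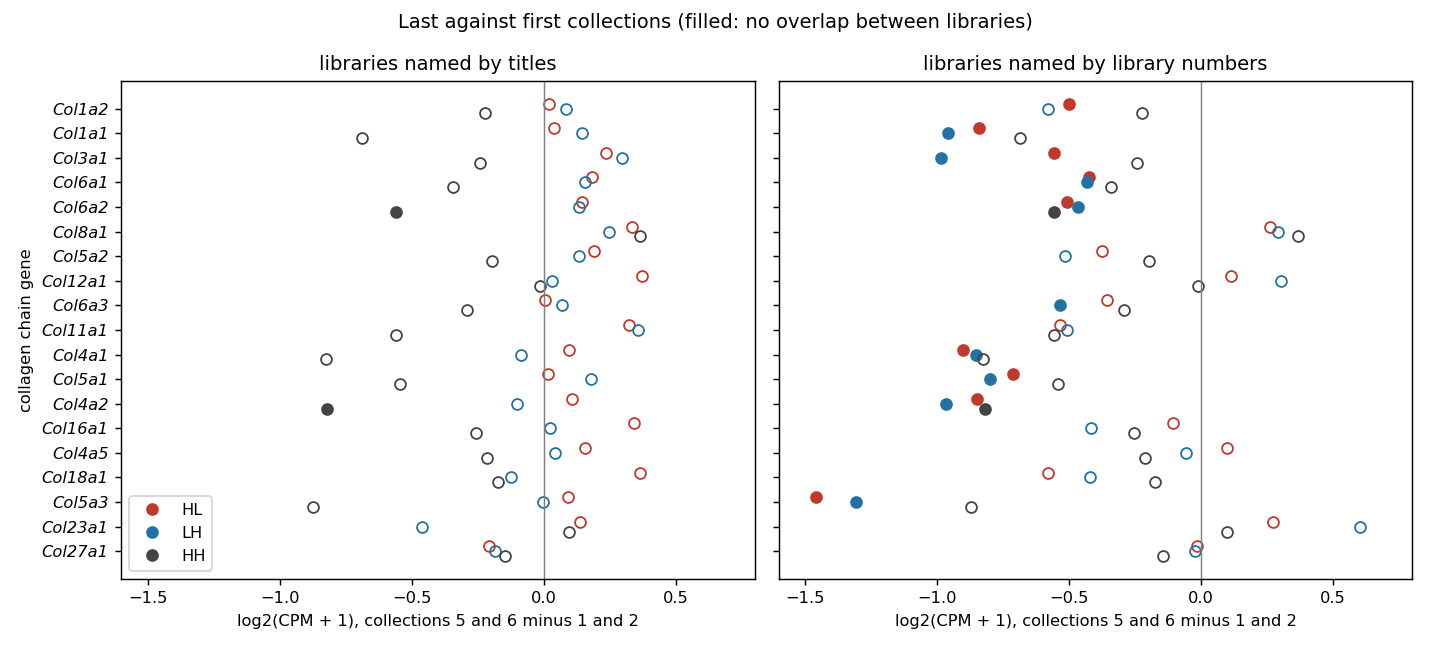
Difference of mean log2(CPM + 1) between the last 2 and the first 2 collections for each of the 19 collagen genes of at least 10 CPM, by treatment (colour) and naming (panel), with filled points where no late library overlapped an early one. The points of HH and, by library numbers, those of HL and LH lie mostly below 0, with Col8a1 above 0 in each.

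Whether the daily rhythm of a collagen gene differed between treatments was tested in 1 edgeR model with a cosine and a sine for each treatment. By titles 0 of 29 genes passed at an adjusted p below 0.05 (background 0.15%, 20 genes), and 4 had an unadjusted p below 0.05, beside 10.5% of all genes. These were Col25a1 (p = 0.015), Col5a3 (p = 0.0229, adjusted p = 0.405), Col12a1 (p = 0.0289) and Col6a2 (p = 0.0497). By library numbers it was also 0 (background 0.00758%, 1 gene), with no unadjusted p below 0.05. A gene called in 1 treatment is therefore not shown to differ in rhythm from the others.

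Chains of 1 trimer were compared within each library, where depth cancels. Type I collagen holds 2 chains from Col1a1 for each chain from Col1a2, while these counts had Col1a1 at 0.441 of Col1a2, a mean log2 ratio of -1.18 ± 0.23 (SD, n = 62). The 3′ reads of 2 genes may be caught with different efficiency, so the level of a ratio is not a ratio of molecules. A difference in capture that is the same in every library does not enter the change of the ratio between libraries. Col1a1 itself had an SD of 0.53 on the log2 scale and Col1a2 of 0.38, so the ratio varied less than either chain.

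The same held for the other pairs with counts in each library. Col4a1, which shares its promoter region with Col4a2 as printed above, was at 1.5 times its level (log2 ratio 0.58 ± 0.22) while the single genes had SDs of 0.67 and 0.62. Col6a1 was at 1.15 times Col6a2 (0.20 ± 0.15), with single SDs of 0.32 and 0.37, the tightest pair. Col6a2 was at 4.82 times Col6a3 (2.27 ± 0.26) and Col6a1 at 5.55 times Col6a3 (2.47 ± 0.26). Col5a1 was at 0.423 of Col5a2 (-1.24 ± 0.26), and at 9.71 times the minor chain Col5a3 (3.28 ± 0.52), the loosest of the pairs with counts in each library. Col8a2 had no count in 27 libraries and Col4a6 had counts in 7, so the ratios to Col8a1 and Col4a5 are not resolved.

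The type I ratio drifted with time in HH, and so did that of Col5a1 to Col5a2. The log2 ratio of Col1a1 to Col1a2 was -0.88 ± 0.06 at 0 h (n = 4), -0.94 ± 0.24 at 4 h (n = 3), -1.16 ± 0.08 at 8 h (n = 3), -1.23 ± 0.09 at 12 h (n = 2), -1.28 ± 0.07 at 16 h (n = 3) and -1.45 ± 0.21 at 20 h (n = 4). The 4 libraries at 0 h ran from -0.94 to -0.83 and those at 20 h from -1.63 to -1.24, with no overlap. By number the means went from -0.85 at 0 h to -1.33 at 20 h in HL and from -1.0 to -1.47 in LH, where the single library at 16 h had -0.82, and by titles from -0.85 to -1.17 in HL and from -1.43 to -1.32 in LH. Col5a1 to Col5a2 in HH ran from -1.13 to -0.96 at 0 h and from -1.59 to -1.26 at 20 h, again with no overlap. Its mean was -1.06 at 0 h and, without collection 6 replicate 3, -1.36 at 20 h. Col4a1 to Col4a2 had means of 0.57 at 0 h and 0.45 at 20 h in HH, within the SD of 0.21 over the HH libraries. Without collection 6 replicate 3 the means at 20 h were -1.39 for Col1a1 to Col1a2 and 0.60 for Col4a1 to Col4a2, so the latter was then above that at 0 h. These drifts are descriptions chosen after the values were seen.

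**Figure D5:**
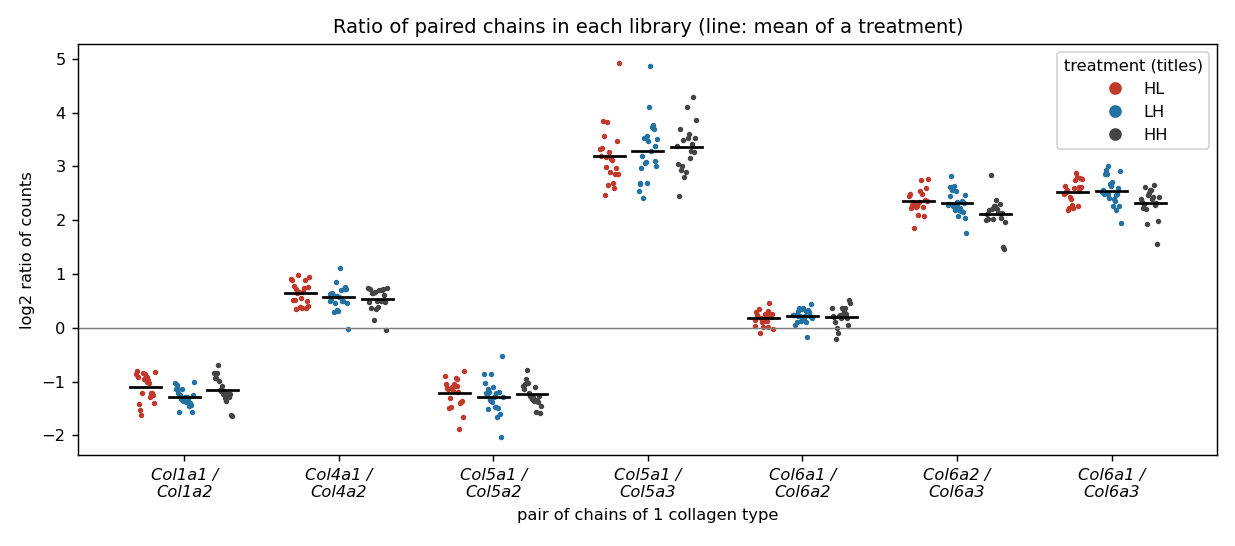
Log2 ratio of the counts of pairs of collagen chain genes in each library by titles, with a line at the mean of the treatment. Points of HL and HH are ordered by collection and replicate. Those of LH run through collections 3 to 6 and then 1 and 2. Col1a1 to Col1a2 runs downward from the first to the last HH libraries, from a mean of -0.88 to -1.45, and Col6a1 to Col6a2 is the tightest pair.

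Genes that fold, trim, cross-link or bind collagen were taken from a list of 42, of which 40 were tested. By titles JTK_CYCLE called 0 of 40 in HL (background 0.466%), 1 of them in LH (0.933%) and 3 in HH (1.22%), and by number it called 2 in HL (1.03%) and 3 in LH (1.31%). Lox, lysyl oxidase, which cross-links fibrils, was among them in LH (P = 0.000458, peak at 8 h) and HH (P = 0.00349, peak at 4 h) by titles and in HL and LH by number. The others in HH were Creb3l1, a transcription factor that drives collagen secretion (P = 0.00478), and Pcolce2, an enhancer of procollagen trimming (P = 0.00128), both with peaks at 2 h. Itgb1, the β1 chain of collagen-binding integrins, was the third in LH by number.

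Lox was also the 1 gene of the list that passed edgeR's test over collections in all 3 treatments under both namings, with adjusted p-values by titles of 0.0159 (HL, background 0.301%), 0.0101 (LH, 2.93%) and 0.0114 (HH, 0.293%). By number, Crtap (adjusted p = 0.0174) and P3h1 (adjusted p = 0.0398), partners in prolyl 3-hydroxylation, passed in LH as well (background 1.05%). Between treatments, Lox was called lower in LH than in HL by titles (log2 fold change -0.32, p = 9.16e-05, adjusted p = 0.243) and lower in LH than in HH (-0.17), and neither call was made by number. By number Loxl2, another lysyl oxidase, was called lower in LH than in HL (-1.89, where titles gave 1.32) and than in HH (-1.68), and P4ha3, a prolyl 4-hydroxylase chain, higher in HH than in HL (0.41) and lower in LH than in HH (-0.27). None of the 40 passed the test of a difference in rhythm under either naming.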

How the data were processed

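Total RNA was sequenced by 3′DGE, and the sequencing service aligned the reads and assigned them to genes. The submitters' processing notes name STAR 2.6.0a, HTSeq 0.9.1, bcl2fastq and mm10. The authors deposited raw counts for 31053 genes, without normalization, in 121 sets, 1 per sequencing run, and use of strand is not stated. Runs of a library were summed (59 libraries with 2 runs, 3 with 1 run), giving 62 libraries, without the closing totals (reads on no feature, 18.4% to 29.1%). Symbols and positions came from GENCODE M21, which matched 31011 identifiers, and promoters from RefSeq (GRCm38.p6).

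Tests covered genes that reached 1 CPM in 3 or more libraries. JTK_CYCLE was coded anew, with an exact null and a period of 24 h. Counts were tested with edgeR 4.0.16 in R 4.3.3 (quasi-likelihood, TMM scaling, all treatments fitted together), levels being compared with collection in the model, and adjusted by Benjamini-Hochberg over all genes tested. DESeq2 1.42.0, other filters and scaling, single runs, a replicate block and leaving out replicates were alternatives. The tests were tried on simulated data first. Values by collection are given for the 10 highest collagen genes, 5 that the paper names from these libraries, which are therefore no independent evidence, and those past a threshold, 15 genes in all. The members and lists were chosen with earlier results of these data known. A count of 0 and low values carry counting error, and the floors given cover counting error only.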

Additional observations from a re-analysis of the deposited data

Results flagged for a closer look

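Within a treatment and collection of 4 libraries by titles, a library was marked where its gap to the nearest of the others exceeded Dixon's 95% limit. Of 135 such groups over the 15 genes with values by collection, 14 were marked, where chance marks about 1 in 20 groups (6.75 of 135). The genes share the same libraries, so the groups are not independent and the excess was not tested. HL collection 2 replicate 4 had 4 of the marks, and LH collection 4 replicate 2 and LH collection 6 replicate 1 had 3 each. Groups of other sizes were not tested. No explanation was tested for any of them.

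In HL collection 2, replicate 4, which the library numbers place in LH collection 1, was above the other 3 libraries, which the read summary does not list. It had 151 CPM of Col4a2 beside 22.3 to 39.8, 252.6 CPM of Col6a3 beside 131 to 138, 15.3 CPM of Col5a3 beside 4.89 to 5.85 and 2.23 CPM of Col15a1 beside 0 to 0.195. Col4a1 had 199.998 CPM in HL collection 4 replicate 1, by number LH collection 2 replicate 2, beside 143 to 152 in the others.

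In LH collection 4, replicate 2 was low, with 3451 CPM of Col1a1 beside 6564 to 7095, 54.2 CPM of Col5a1 beside 139 to 144 and 37.7 CPM of Col4a2 beside 93.4 to 101. In LH collection 5, replicate 1 was high in both basement membrane chains, with 175 CPM of Col4a1 beside 86.5 to 98.1 and 139.6 CPM of Col4a2 beside 59.3 to 69.9. In LH collection 6, replicate 1 was low, with 8861 CPM of Col1a2 beside 12594 to 13257, 176 CPM of Col5a2 beside 294 to 309 and 29.9 CPM of Col4a2 beside 81.0 to 91.3. Col8a1 had 576 CPM in LH collection 3 replicate 3 beside 808 to 844. The library numbers place all of these in HL. LH collection 4 replicate 2 is there HL collection 3 replicate 4, and LH collection 6 replicate 1 is HL collection 5 replicate 4. LH collection 5 replicate 1 is HL collection 4 replicate 3, and LH collection 3 replicate 3 is HL collection 2 replicate 4.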

How the results depend on the processing

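By titles, the library numbers changed the number of rhythmic collagen genes to 2 in HL and 7 in LH, the number changed over collections in HL to 1, and the number at another level to 0 for LH against HL and 0 for HH against HL. With them the log2 fold change of LH against HL turned to 0.75 for Col15a1 and to -0.12 for Col8a1. Rhythmic genes numbered 1 in LH and 1 in HH with CPM by TMM-scaled totals, 2 in LH and 1 in HH with a cosinor in edgeR, 1 in HH with the first run alone and 0 in HH after adjustment of P. The cosinor's p was below 0.01 for 434 of 13292 genes in LH and 382 in HH. No such number is given for rhythmic genes with TMM-scaled totals or a single run. Changed over collections were 3 in HL and 2 in LH with DESeq2 (0.813% and 5.30% of all genes) and 2 in LH with the second run alone (7.11%). At another level in LH and HL was 1 gene with the first run, with the second run, with a filter of 5 CPM in 10 libraries and with no term for collection, and 0 after adjustment. For HH and HL it was 1 with the first run and 0 after adjustment, and for LH and HH 1 without a filter and 1 with DESeq2. Without the 5 unlisted libraries, a choice made after seeing the data, 3 genes were rhythmic in HL and 1 in LH, beside 172 and 162 of all 13198 genes. Without HH collection 6 replicate 3, also chosen then, 3 were rhythmic in HH, beside 139 of all 13264 genes.

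The alternatives by library numbers were all added after seeing the data. Rhythmic genes numbered 4 in HL with a cosinor, 1 in LH with the second run, 1 in HH with the first run and 0 in each treatment after adjustment. At the wider limit of p below 0.05 the cosinor in HL gave 8 collagen genes, beside 5.44% of all genes. No share of all genes is given for rhythmic genes with a single run. Changed over collections were 0 in HL with either run, 0 in LH with the second run, and 4 in HL, 4 in LH and 4 in HH with DESeq2, beside 0.970%, 3.04% and 2.19% of all genes. Without a filter 3 were at another level in LH and HL, 1 in HH and HL and 2 in LH and HH.

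Leaving out the libraries of 1 replicate number of 1 treatment in turn gave, by titles, 0 to 0 rhythmic genes in HL and in LH and 0 to 2 in HH, 0 to 6 changed over collections in HL (6 without HL replicate 4), 0 to 4 in LH (4 without HL replicate 4, 0 without LH replicate 1) and 0 to 0 in HH, and 0 to 3, 0 to 2 and 0 to 2 at another level in LH and HL, HH and HL, and LH and HH. By library numbers it gave 0 to 3, 0 to 7 (0 without LH replicate 1, 1 without LH replicate 2) and 0 to 2 rhythmic genes in HL, LH and HH, 0 to 2, 0 to 3 and 0 to 2 changed over collections, and 0 to 0, 0 to 1 and 0 to 1 at another level. The test of a difference in rhythm gave 0 under every alternative run, by titles and by numbers.

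Libraries with the same replicate number by titles did not deviate together (52 pairs, correlations from -0.376 to 0.502, median -0.00635, 10 over 0.1). The replicate numbers of the titles were therefore not taken to pair the samples. The most correlated pair, HL and LH collection 5 replicate 2 by titles (0.502), is replicate 4 in each by number. Whether replicate numbers pair the libraries when these are named by number was not tested. The replicate block gave 0 rhythmic genes in HH, left the other counts by titles within 1.5 times, and by library numbers gave 0 rhythmic genes in HH, 6 changed over collections in HL, 6 in LH and 5 in HH (0.977%, 3.49% and 2.14% of all genes), and 1 at another level in LH and HH. Over all counts, 317 alternatives stayed within 1.5 times the reported one and 104 did not, and for the fold changes of Col8a1, Col12a1 and Col15a1, 59 alternatives kept direction and threshold, 26 kept the direction alone and 2 reversed. The causes were not tested. The library of 104912 counts does not resolve genes below about 28.6 CPM, and the 20 genes with a mean below 1 CPM are limited by depth in every library.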
